A study of Homo sapiens with 6 samples.

Results

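The genes of extracellular Wnt signalling were examined in A172 cells with and without RBFOX1. The members were chosen by a rule on their symbols, with earlier results of these data known. They were the WNT ligands, the Frizzled (FZD) receptors, the co-receptors LRP5 and LRP6, and the alternative receptors ROR1, ROR2 and RYK. Also included were the secreted antagonists of the SFRP, DKK and WIF1 families, and the R-spondins with their LGR receptors. The ligases ZNRF3 and RNF43 and a few pathway genes inside the cell, AXIN2, NKD1, NKD2 and the TCF/LEF factors, completed the list. The rule named 60 genes among the 58051 genes of the count files, of which 19629 were protein-coding. A172 is a long-established line from a human glioblastoma. Both groups were stable A172 lines infected with lentivirus, and they differed in the insert of the expression plasmid, which was GFP in the controls (pLX317-GFP) and RBFOX1 in the others (pLX317-RBFOX1). Each group had 3 biological replicates, and stranded libraries were sequenced from their total RNA after removal of rRNA. The protein was therefore made from a viral insert and not from the cell's own gene, and every result refers to a single cell line in culture.

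WNT proteins are lipid-modified secreted ligands that bind a Frizzled receptor together with LRP5 or LRP6. That complex shuts down the machinery that degrades β-catenin, which then enters the nucleus and joins TCF/LEF factors at target genes such as AXIN2. DKK proteins block LRP5 and LRP6, SFRP proteins and WIF1 bind the ligands, and R-spondins protect Frizzled receptors from the ligases ZNRF3 and RNF43, while ROR1, ROR2 and RYK carry WNT signals that do not need β-catenin. Wnt signalling patterns the developing brain, and it is studied in glioblastoma for its part in stem-like growth and invasion. RBFOX1 is an RNA-binding protein of neurons and muscle that recognizes TGCATG in DNA letters.

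RBFOX1 itself had 4, 0 and 1 counts in GFP replicates 1, 2 and 3, against 10276, 16467 and 21451 in RBFOX1 replicates 1, 2 and 3, so its RNA was abundant in the libraries labelled for it and near 0 in the others. The counts on genes summed to between 7433414 and 23249221 per library, and 3 counts, which is what a count of 0 allows, were worth 1.82 to 5.44 normalized counts (counts scaled to a common library size). The deepest library, GFP replicate 1, stood apart from the other GFP libraries, with chi-square values of 8.90 and 9.07 per degree of freedom against them, where the other replicate pairs had 1.66 to 3.01. Of the glial markers, GFAP, AQP4, S100B and SLC1A3 had at most 4 counts in any library, SOX2 and NES were higher and SOX9 was lower in RBFOX1 cells. The summed length-scaled level (normalized CPM per kb of exon) of the 7 glial markers ranged from 59.6 to 73.1 in GFP and from 79.8 to 85.5 in RBFOX1 libraries. That of the 4 mesenchymal markers ranged from 913 to 964 in GFP and from 596 to 604 in RBFOX1 libraries (3 lower, and CHI3L1 higher). That of the 5 neuronal markers ranged from 0.599 to 0.819 in GFP and from 2.87 to 3.86 in RBFOX1 libraries (STMN2 higher). Nearly all of this rise was STMN2, with a mean level of 0.0613 in GFP and 2.58 in RBFOX1 libraries. RBFOX3 and SNAP25 had at most 3 counts in any library, and SYN1 and TUBB3 were not called as higher or lower. Only the markers named as higher or lower moved with the same groups as the Wnt genes, and their part in the results was not tested. In RNA from whole cultures, fewer cells of a kind and less RNA per cell cannot be told apart.

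Of the 60 Wnt genes, 43 reached a sum of 10 counts over the libraries and were tested. By edgeR's quasi-likelihood test, adjusted over all genes by Benjamini and Hochberg, 17 rose, 12 fell and 14 did not pass an adjusted p of 0.05. Among all 20536 genes tested, 46.6% passed, 23.7% as higher and 22.9% as lower. The groups of 29 of the 43 members did not overlap (67.4%), against 53.4% of all genes tested. When the log2 fold change also had to be 1 or more in size, 11 members rose and 4 fell, and the shares of all genes tested were 8.23% and 4.48%. The median log2 fold change of the tested members was 0.24, against 0.0051 for all genes tested. These counts are not a measure of the family as a whole, since 8 members had fewer than 10 counts in the GFP libraries together and 2 had fewer than 10 in the RBFOX1 libraries together, and such genes entered the test only through the group where they were higher. The 23 members that averaged 50 or more normalized counts over all libraries had at least 10 counts in each group, although TCF7 reached that average only through its RBFOX1 libraries. Of these, 9 rose and 10 fell, that is 82.6% called, where 63.8% of all genes above that level were called, 30.4% as higher and 33.4% as lower. Their median log2 fold change was -0.05 and the median of its absolute value was 0.66, against -0.02 and 0.29 for all genes above that level. The 6 of them whose log2 fold change was 1 or more in size were WNT9A, DKK1 and TCF7, which rose, and FZD8, FZD1 and LGR4, which fell.

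**Figure D1:**
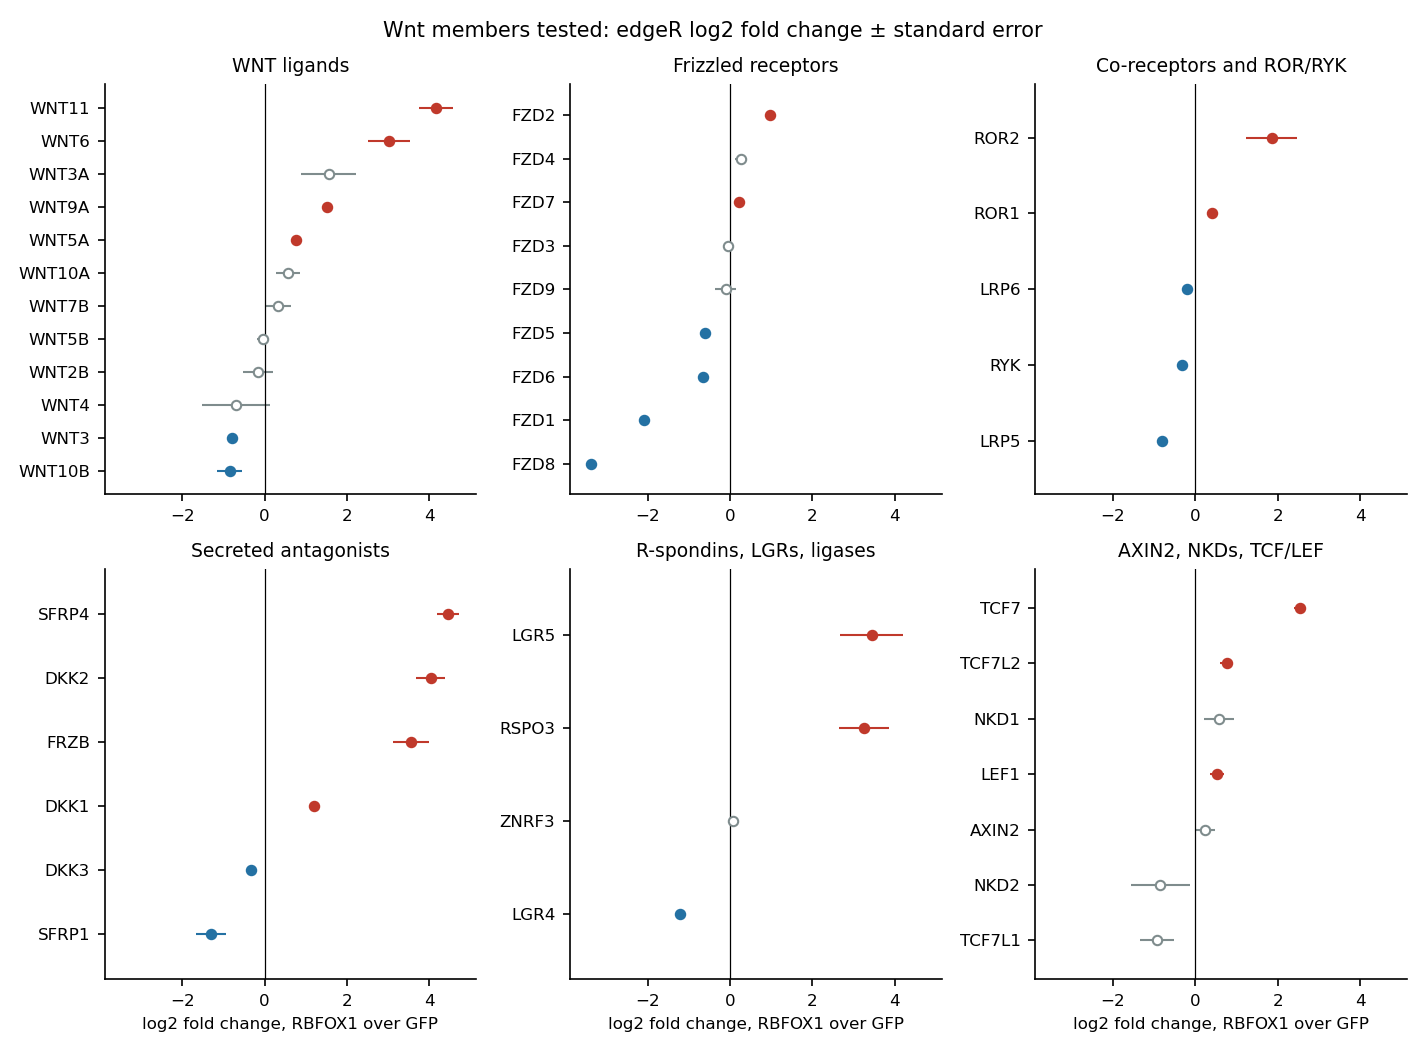
Log2 fold change of RBFOX1 over GFP cells for the 43 tested Wnt genes, by role, with edgeR's standard error as bars. Filled points passed an adjusted p of 0.05 (17 higher in red, 12 lower in blue) and open points did not; the range runs from FZD8 at -3.38 to SFRP4 at 4.46.

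The 10 members with no count in any library were the ligands WNT1, WNT8B, WNT9B and WNT16, the receptor FZD10, the antagonists SFRP2, DKK4 and WIF1, and the R-spondins RSPO2 and RSPO4. A further 7 members had at most 4 counts in any library and were not tested, namely WNT2, WNT7A, WNT8A, SFRP5, RSPO1, LGR6 and RNF43. RNF43, the partner ligase of ZNRF3, had 1 count in a GFP library and none in the other libraries, while WNT2 had 0 to 2 counts per library. RNA of the 10 genes with no count, such as WNT1, the founding member of the ligand family, was not detectable at this depth.

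The motif TGCATG was searched in the sense strand of the canonical 3′ UTRs of the members, because RBFOX1 binds it. It occurred in 18 of the 43 tested members (41.9%), against 5131 of the 14049 protein-coding genes that were tested and had an annotated 3′ UTR (36.5%). The median 3′ UTR was 1806 bases long in these members and 1298 in the tested genes. A match is a description of the letters and not a bound site. The sites printed here belong to ligands, receptors and an antagonist, DKK2, picked by name among the members that passed the test. Those of FZD5, FZD7, LRP6, ROR1, RYK and RSPO3, which also passed, are not printed. Each has 12 bases on each side in lower case and the motif in capitals, written 5′ to 3′ on the strand of the gene. The sequences are from GENCODE release 44 transcripts and the coordinates of the capitals are on GRCh38. WNT9A, on the minus strand of chromosome 1, had 4 sites, at chr1:227921363-227921368, chr1:227921297-227921302, chr1:227921037-227921042 and chr1:227919735-227919740.
WNT9A site 1: tgggtctacaccTGCATGggctgagtccct
WNT9A site 2: ctcagtcctagcTGCATGgggtgcaggcat
WNT9A site 3: gggtgagggccaTGCATGcagtatgagggg
WNT9A site 4: gtgttgtataaaTGCATGctggcatggtct
The only site of FZD8 was at chr10:35638275-35638280 (minus strand), and FZD1 had sites at chr7:91268335-91268340 and chr7:91269319-91269324 (plus strand).
FZD8: tgttatttatccTGCATGgtatcactaaag
FZD1 site 1: aaaatatgggcaTGCATGctaaagggaaaa
FZD1 site 2: agtcagaatttaTGCATGggtgtatatatg
Those of WNT5A, WNT3 and DKK2 were at chr3:55467301-55467306, chr17:46763441-46763446 and chr4:106922780-106922785, all on the minus strand.
WNT5A: cttttagcattaTGCATGtaacttaattgt
WNT3: tcctccctcaccTGCATGctgagatagctt
DKK2: taaatgaatatcTGCATGggatttgctatc

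Genes with these letters were found on both sides of the comparison. Of the 18 tested members with the motif, 6 rose, 6 fell and 6 did not pass, and of the 25 without it, 11 rose, 6 fell and 8 did not pass. Of all genes tested, 23.7% rose and 22.9% fell. The median log2 fold change was -0.05 with and 0.54 without the motif in these members. It was 0.06 with and -0.01 without it over the 14049 genes. Fewer than 10 counts in the GFP libraries together were held by 8 tested members. Of these, WNT3A, WNT6, WNT11, ROR2, FRZB and LGR5 had no motif, and DKK2 and RSPO3 had it. Of the 2 with fewer than 10 in the RBFOX1 libraries together, NKD2 had no motif and WNT4 had it. Such genes entered the test only through the other group, so the contrast among the members is not a measure of the motif. WNT9A, with 4 sites, WNT5A and DKK2 rose, whereas FZD8, FZD1 and WNT3 fell. DKK1, SFRP4, TCF7, FZD2 and LGR4, which all passed the test, had no TGCATG in the canonical 3′ UTR.

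Among the ligands, the RNA for WNT9A rose to become the most abundant in RBFOX1 cells, WNT5A rose, WNT3 fell, and WNT11 and WNT6 rose from a few counts. Of 19 WNT genes, 12 were tested, 4 rose and 2 fell. These 6 of 12 are near the 46.6% of all genes tested. WNT3A, WNT6 and WNT11 reached the 10 counts needed for testing only through the RBFOX1 libraries, and WNT4 only through the GFP libraries. This share is therefore not a measure of the ligands. WNT9A (ENSG00000143816, chr1:227918656-227947932), a ligand known for its part in joint formation and blood stem cells, had 175, 162 and 181 normalized counts in GFP replicates 1, 2 and 3 and 464, 481 and 528 in RBFOX1 replicates 1, 2 and 3. The groups were far apart, with means of 173 ± 9.60 and 491 ± 32.9 (SD, n = 3 each), that is 2.84-fold higher in RBFOX1 cells (log2 fold change 1.51, SE 0.0844, edgeR adjusted p = 9.62e-12). WNT5A, the best known ligand of β-catenin-independent signalling, had 175, 196 and 189 normalized counts in GFP and 303, 329 and 312 in RBFOX1 replicates, again without overlap (log2 fold change 0.77, SE 0.0873, edgeR adjusted p = 3.49e-07). WNT3, a ligand of the β-catenin branch, went the other way, with 249.5, 228 and 239 normalized counts in GFP and 151, 138 and 129 in RBFOX1 replicates (log2 fold change -0.81, SE 0.0986, edgeR adjusted p = 9.81e-07). All RBFOX1 libraries lay below all GFP libraries for WNT3.

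WNT11, a β-catenin-independent ligand of gastrulation and kidney branching, had 18, 25 and 28 counts in RBFOX1 replicates but only 2, 2 and 1 in GFP replicates. The groups did not overlap, and scaled for library size the counts stood in a ratio of 19.2 (95% exact counting interval 7.87 to 61.1, edgeR adjusted p = 7.04e-08). WNT6, an epithelial ligand, had 11, 13 and 14 counts in RBFOX1 replicates but 1, 2 and 3 in GFP replicates, a ratio of 8.59 (3.60 to 24.8, edgeR adjusted p = 6.52e-05). Counting intervals of this kind cover counting error only. WNT10A, a ligand of teeth, hair and skin, begins 6618 bases after WNT6 on the same strand, and its 14.0, 11.7 and 10.5 normalized counts in GFP and 19.95, 17.8 and 18.3 in RBFOX1 replicates did not overlap but did not pass the test (log2 fold change 0.57, adjusted p = 0.116).

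WNT10B, a ligand that restrains fat cell formation, had 23.7, 16.3 and 22.1 normalized counts in GFP and 7.26, 15.5 and 11.0 in RBFOX1 replicates. The highest RBFOX1 library came close to the lowest GFP library, and the fall (log2 fold change -0.85, adjusted p = 0.0288) did not pass without GFP replicate 1 (adjusted p = 0.120), GFP replicate 3 (0.0553), RBFOX1 replicate 1 (0.0924) or RBFOX1 replicate 3 (0.109), nor with DESeq2 (0.194) or the replicate number as a block (0.0570). WNT5B, the close relative of WNT5A, had 85.2 to 101 normalized counts in GFP and 85.5 to 97.9 in RBFOX1 libraries, so that the groups overlapped (log2 fold change -0.05, SE 0.129, adjusted p = 0.779). WNT2B, WNT7B and WNT4 also overlapped, and their log2 fold changes were -0.16, 0.32 and -0.69 (adjusted p = 0.767, 0.442 and 0.538). Leaving out a library moved WNT2B from -0.59 (without RBFOX1 replicate 3) to 0.21 (without RBFOX1 replicate 2). It moved WNT7B from 0.04 (without RBFOX1 replicate 3) to 0.43 (without RBFOX1 replicate 1) and WNT4 from -2.28 (without RBFOX1 replicate 3) to -0.06 (without GFP replicate 3), and none passed. WNT3A, the ligand most used to switch on β-catenin in culture, had 5, 3 and 0 counts in GFP and 1, 9 and 8 in RBFOX1 replicates, and its adjusted p of 0.0666 fell to 0.0324 without RBFOX1 replicate 1.

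Levels of different genes were set side by side only per kb of exon, as normalized CPM per kb. The exon length was that of all annotated transcripts of a gene merged, and the transcripts made in these cells were not determined. The order of genes by level therefore depends on that length. On that scale the WNT RNAs summed to 11.2 ± 0.386 (SD, n = 3) in GFP cells and to 18.3 ± 0.406 (SD, n = 3) in RBFOX1 cells. WNT3 took 28.4 ± 0.873% of that sum in GFP cells and 10.2 ± 1.01% in RBFOX1 cells, whereas WNT9A went from 27.6 ± 0.599% to 48.2 ± 2.15%. In GFP cells WNT3 and WNT9A, the highest ligands, therefore did not differ beyond their spread (levels of 3.19 ± 0.146 and 3.11 ± 0.173), while in RBFOX1 cells WNT9A at 8.83 ± 0.592 lay far above WNT5A, the next, at 3.17 ± 0.131. WNT5A kept a similar share, 16.7 ± 1.41% and 17.3 ± 0.765%, and that of WNT11 went from 0.420 ± 0.207% to 4.77 ± 0.700%.

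**Figure D2:**
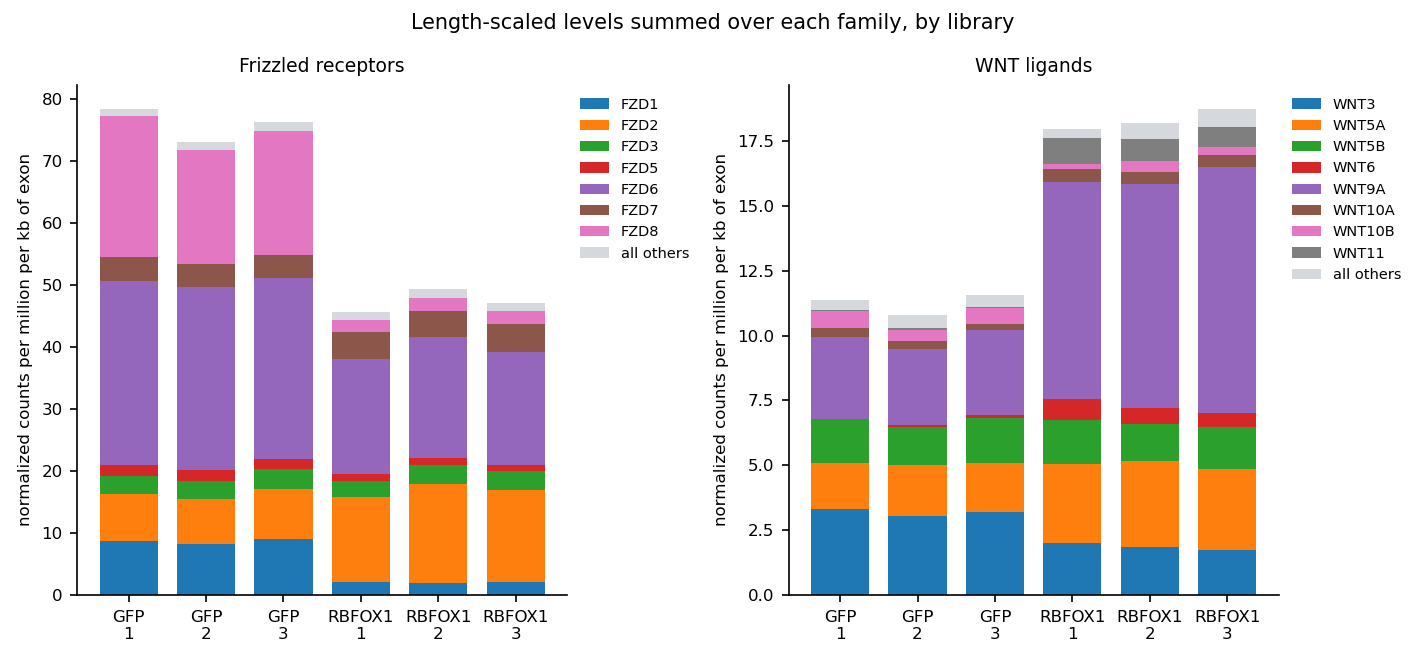
Stacked length-scaled levels (normalized CPM per kb of exon) of the Frizzled receptors (left) and WNT ligands (right) in each of the 6 libraries, with colours for single genes. The Frizzled sum is lower in the RBFOX1 libraries (47.3 ± 1.85 against 75.9 ± 2.66), with FZD8 shrunk to a thin band, and the WNT sum is higher (18.3 ± 0.406 against 11.2 ± 0.386), mostly in WNT9A.

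Among the Frizzled receptors, FZD8 and FZD1 fell the most, FZD6 and FZD5 fell less, and FZD2 rose. Of 10 FZD genes, 9 were tested, 2 rose and 4 fell (66.7%, against 46.6% of all genes tested). Of the 9, 8 averaged 50 or more normalized counts. The same 2 rises and 4 falls were among these 8, where 63.8% of all genes above that level were called. FZD8 (ENSG00000177283, chr10:35638247-35642296, minus strand), a β-catenin-branch receptor whose ligand-binding domain is structurally the best known of the family, had 1271, 1037 and 1123 normalized counts in GFP and 103, 114 and 111 in RBFOX1 replicates. Every RBFOX1 library was at about the same low level, 10.5-fold below GFP in the means (1144 ± 118 and 109 ± 5.56, SD, n = 3 each; log2 fold change -3.38, SE 0.0949, edgeR adjusted p = 2.79e-16). FZD1 (ENSG00000157240, chr7:91264433-91271326), a broadly expressed receptor of the β-catenin branch, had 831, 782 and 859 normalized counts in GFP and 205, 184 and 195 in RBFOX1 replicates. This was a 4.23-fold fall with no overlap (log2 fold change -2.09, SE 0.0767, edgeR adjusted p = 1.70e-14).

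FZD2, a close relative of FZD1 and a receptor for WNT5A, went the other way, with 399, 379.5 and 427 normalized counts in GFP and 713, 837 and 783 in RBFOX1 replicates. The lowest RBFOX1 library lay well above the highest GFP library (log2 fold change 0.96, SE 0.0734, edgeR adjusted p = 1.20e-09). FZD7, the remaining member of the FZD1, FZD2 and FZD7 subfamily, had 254, 234 and 237 normalized counts in GFP and 283, 267 and 296 in RBFOX1 replicates. Its groups did not overlap, but the margin was narrow (log2 fold change 0.22, adjusted p = 0.0432). It did not pass without GFP replicate 2 (adjusted p = 0.126), GFP replicate 3 (0.111), RBFOX1 replicate 1 (0.0632) or RBFOX1 replicate 3 (0.175), nor with DESeq2 (0.170), upper quartile scaling (0.0761), no filter on low counts (0.0977) or the replicate number as a block (0.0545). The summed level of these 3 receptors was 20.1 ± 0.893 in GFP and 21.3 ± 0.990 in RBFOX1 cells, with GFP libraries at 19.1 to 20.8 and RBFOX1 libraries at 20.2 to 22.1, so that the groups overlapped although FZD1 fell and FZD2 rose.

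FZD6, a receptor of planar polarity and of hair and claw growth, had the highest length-scaled level of the family in both groups. It had 1674, 1664 and 1649.7 normalized counts in GFP and 1041, 1102 and 1024 in RBFOX1 replicates, a clear separation (log2 fold change -0.66, SE 0.0532, edgeR adjusted p = 2.95e-09). FZD5, the nearest relative of FZD8, had 172.4, 169 and 158 normalized counts in GFP and 112, 115 and 102 in RBFOX1 replicates, also without overlap (log2 fold change -0.61, SE 0.109, adjusted p = 9.89e-05). The groups of FZD3, an axon guidance receptor, of FZD4, the Norrin receptor of retinal vessels, and of FZD9 overlapped, and their log2 fold changes were -0.05, 0.27 and -0.10 (adjusted p = 0.602, 0.136 and 0.793).

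The order of the receptors by level changed with these differences. In GFP cells FZD6 (29.5 ± 0.214 normalized CPM per kb) was followed by FZD8 (20.3 ± 2.11), FZD1 (8.61 ± 0.403) and FZD2 (7.66 ± 0.452), and the ranges of the latter pair came close to each other. In RBFOX1 cells FZD6 (18.7 ± 0.734) was followed by FZD2 (14.8 ± 1.19) and FZD7 (4.42 ± 0.231), with FZD1 at 2.04 ± 0.108 and FZD8 at 1.95 ± 0.0989, which did not differ beyond their spread. FZD8 took 26.8 ± 1.87% of the Frizzled sum in GFP and 4.11 ± 0.0775% in RBFOX1 cells, and FZD2 took 10.1 ± 0.512% and 31.3 ± 1.36%. The share of FZD6 was 38.9 ± 1.33% and 39.5 ± 0.911%, while its RNA and the sum of the family were both lower.

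**Figure D3:**
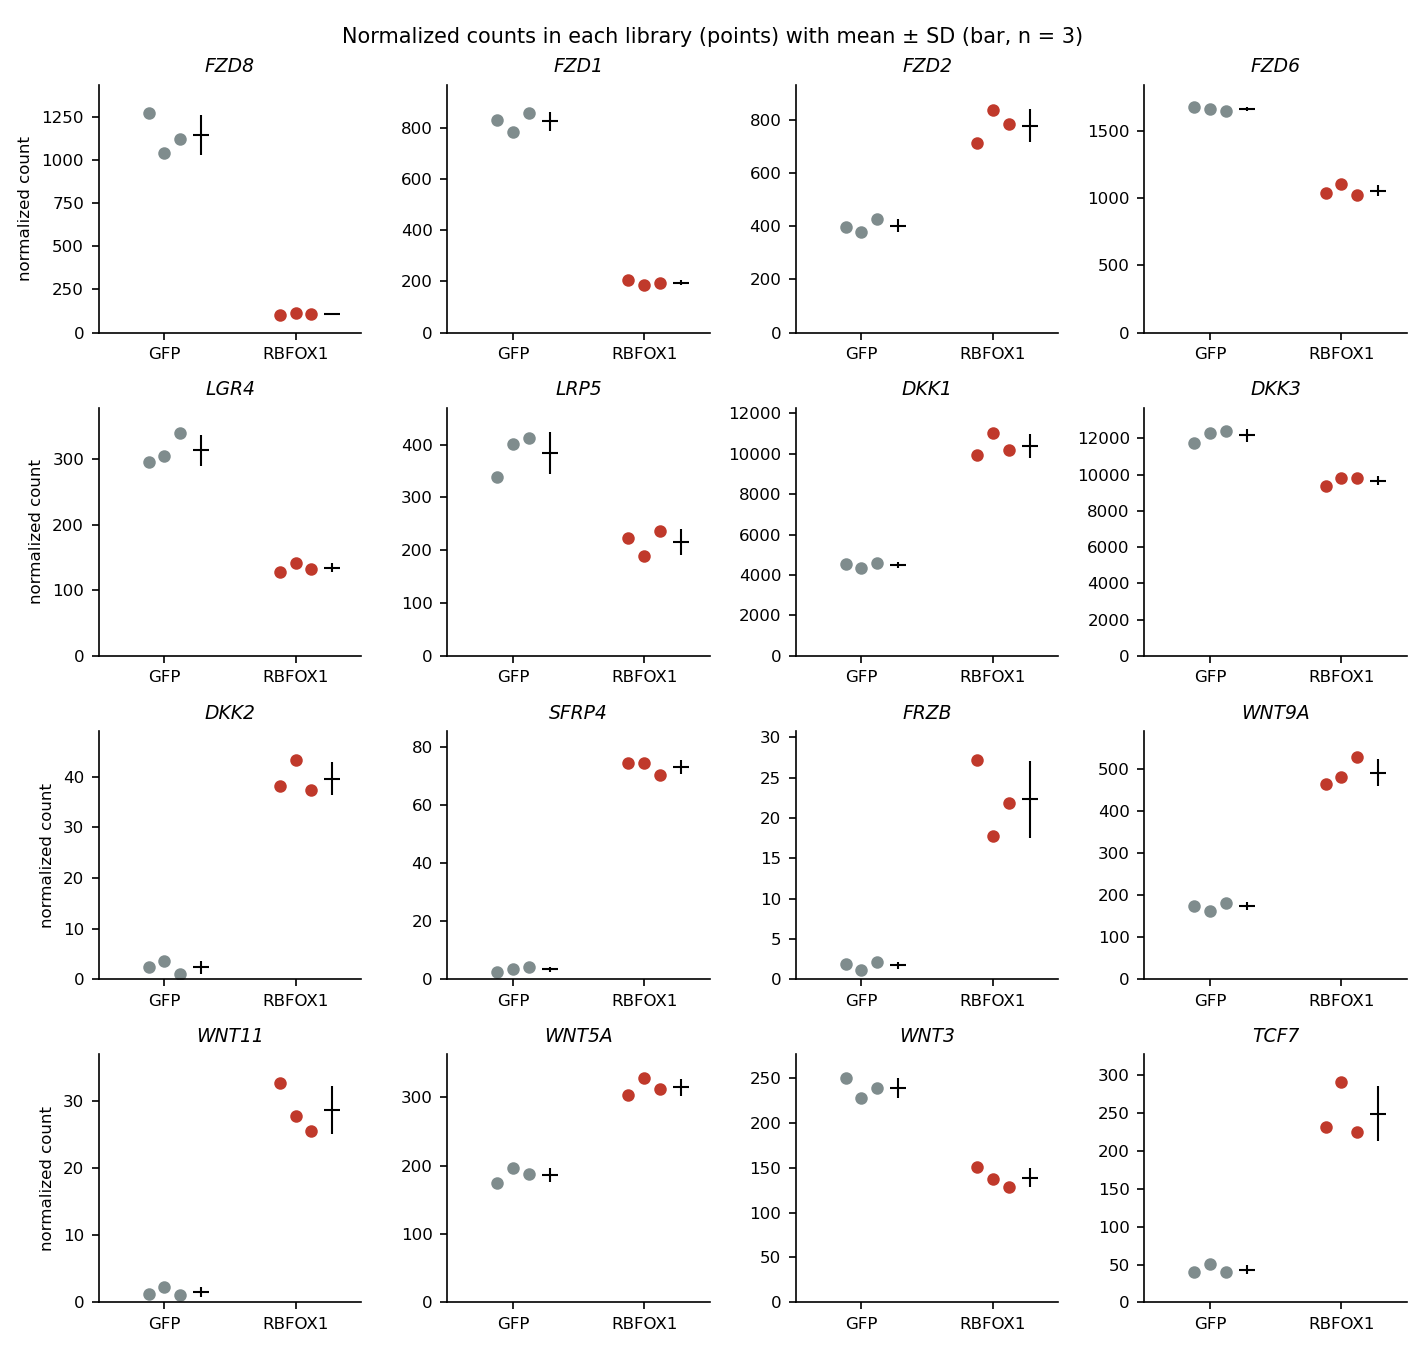
Normalized counts in each library (points, GFP in grey and RBFOX1 in red) of 16 Wnt genes that passed the test, each panel with its own linear axis from 0, and the mean ± SD of the 3 replicates as a cross with a bar. FZD8, FZD1, FZD6, LGR4, LRP5, DKK3 and WNT3 lie lower in every RBFOX1 library and the other genes higher, with no overlap in any panel.

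Of the co-receptors and alternative receptors, LRP5, LRP6 and RYK fell and ROR1 and ROR2 rose. All 5 were tested and called, where 46.6% of all genes tested were. ROR2 reached the 10 counts needed for testing only through the RBFOX1 libraries. The other 4 averaged 50 or more normalized counts, and 63.8% of all genes above that level were called. LRP5 (ENSG00000162337, chr11:68312591-68449275), the co-receptor known from inherited changes of bone mass, had 338, 401 and 412 normalized counts in GFP and 223, 189 and 237 in RBFOX1 replicates. Its groups did not overlap (log2 fold change -0.81, SE 0.101, edgeR adjusted p = 1.17e-06). LRP6, its paralog, had 566, 573 and 598 against 489.7, 522 and 507 normalized counts, which did not overlap either but differed little (log2 fold change -0.19, adjusted p = 0.0236). The call was lost without GFP replicate 3 (adjusted p = 0.0878), RBFOX1 replicate 1 (0.0769) or RBFOX1 replicate 3 (0.0747) and with DESeq2 (0.102). On the length-scaled level LRP5 and LRP6 stood at 4.47 ± 0.463 and 4.02 ± 0.117 in GFP cells, within their spread of each other, and at 2.52 ± 0.287 and 3.52 ± 0.111 in RBFOX1 cells.

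RYK, a kinase-dead receptor for WNT5A, had the highest level of this group (12.5 ± 0.433 in GFP and 10.0 ± 0.555 in RBFOX1 cells). It had 1445, 1356 and 1436 normalized counts in GFP and 1070.2, 1196 and 1139.6 in RBFOX1 replicates, a fall without overlap (log2 fold change -0.31, SE 0.0568, edgeR adjusted p = 0.000120). ROR1, an oncofetal WNT5A receptor, had 160.3, 174 and 169 normalized counts in GFP and 256, 201 and 220.1 in RBFOX1 replicates (log2 fold change 0.42, SE 0.102, adjusted p = 0.00205), and RBFOX1 replicate 1 was the highest. ROR2, the WNT5A receptor of skeletal growth, had 3, 2 and 3 counts in GFP and 5, 13 and 4 in RBFOX1 replicates, a ratio of 3.73 (95% exact counting interval 1.60 to 9.68, adjusted p = 0.0166). RBFOX1 replicate 2 gave more of its counts than the other RBFOX1 libraries together. Without it ROR2 did not pass (adjusted p = 0.187), and the same held without GFP replicate 1 (0.0638) and with DESeq2 (0.0818).

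Among the secreted antagonists, DKK1, DKK2, SFRP4 and FRZB rose and DKK3 and SFRP1 fell, so that all 6 that could be tested passed, against 46.6% of all genes tested. DKK2 and FRZB reached the 10 counts needed for testing only through the RBFOX1 libraries. DKK1 (ENSG00000107984, chr10:52314281-52318042), the classical inhibitor of LRP5 and LRP6 and itself a β-catenin target, had 4535, 4334 and 4610.0 normalized counts in GFP and 9913, 11024 and 10176 in RBFOX1 replicates. The libraries of each group lay close together and the means differed 2.31-fold (4493 ± 143 and 10371 ± 581, SD, n = 3 each; log2 fold change 1.21, SE 0.0515, edgeR adjusted p = 1.53e-13). DKK3, a divergent DKK protein that does not act on LRP5 and LRP6 in the classical way, had 11764, 12302 and 12417 normalized counts in GFP and 9361, 9782 and 9828 in RBFOX1 replicates, a smaller fall without overlap (log2 fold change -0.33, SE 0.0470, edgeR adjusted p = 6.30e-06). DKK1 and DKK3 together made up nearly all antagonist RNA on the length-scaled level, with DKK1 at 66.4 ± 1.03% and DKK3 at 33.4 ± 0.994% in GFP cells and 84.6 ± 0.568% and 14.7 ± 0.541% in RBFOX1 cells. The merged exon lengths behind these shares were 2221 bases for DKK1 and 11958 for DKK3. In normalized counts DKK3 stood above DKK1 in GFP cells (12161 ± 349 and 4493 ± 143), so their order there depends on the length used. In RBFOX1 cells DKK3 was slightly below DKK1 (9657 ± 257 and 10371 ± 581). The antagonist sum was 219 ± 4.89 in GFP and 397 ± 19.7 in RBFOX1 cells, many times the sum of the ligands.

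The other rising antagonists started from almost nothing. SFRP4 (ENSG00000106483, chr7:37905932-38025695), a decoy receptor that resembles the ligand-binding part of a Frizzled, had 4, 3 and 4 counts in GFP and 41, 67 and 77 in RBFOX1 replicates, a ratio of 22.8 (95% exact counting interval 12.4 to 46.5, edgeR adjusted p = 3.73e-11). Scaled for depth the RBFOX1 libraries were alike, at 74.4, 74.4 and 70.3 normalized counts, and far from the GFP libraries at 2.43, 3.50 and 4.21. DKK2 (ENSG00000155011, chr4:106921802-107283806), an LRP5 and LRP6 ligand that can inhibit or activate, had 4, 3 and 1 counts in GFP and 21, 39 and 41 in RBFOX1 replicates (ratio 17.1, 8.36 to 40.7, edgeR adjusted p = 8.51e-09). FRZB, also called SFRP3, a decoy receptor of cartilage, had 3, 1 and 2 counts against 15, 16 and 24 (ratio 12.4, 5.36 to 35.3, edgeR adjusted p = 1.13e-06). None of these overlapped between the groups. Their levels stayed small beside DKK1, at 0.378 ± 0.0200%, 0.165 ± 0.00646% and 0.155 ± 0.0397% of the antagonist sum in RBFOX1 cells.

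SFRP1, a decoy receptor often silenced in tumours, had 22, 17 and 18 counts in GFP and 4, 8 and 5 in RBFOX1 replicates, or 13.4, 19.9 and 19.0 against 7.26, 8.88 and 4.57 normalized counts. The groups did not overlap (log2 fold change -1.30, SE 0.375, adjusted p = 0.00702), but the call was lost without RBFOX1 replicate 3 (adjusted p = 0.0671) and with DESeq2 (0.0647).

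Of the 9 genes of the R-spondin axis, 4 were tested, and RSPO3 and LGR5 rose while LGR4 fell. Thus 3 of these 4 were called, where 46.6% of all genes tested were. RSPO3 and LGR5 reached the 10 counts needed for testing only through the RBFOX1 libraries, so this share is not a measure of the axis. LGR4 (ENSG00000205213, chr11:27365961-27472790), the main R-spondin receptor of most tissues, had 296, 306 and 340.3 normalized counts in GFP and 129, 142 and 133 in RBFOX1 replicates. The fall was 2.33-fold and the groups were far apart (log2 fold change -1.21, SE 0.0965, edgeR adjusted p = 2.32e-09). LGR5, its stem-cell relative, had 2, 0 and 0 counts in GFP and 5, 6 and 8 in RBFOX1 replicates (ratio 12.9, 95% exact counting interval 3.11 to 114, edgeR adjusted p = 0.000896). RSPO3, the only R-spondin ligand tested, had 1, 0 and 3 counts against 6, 11 and 14 (ratio 10.5, 3.71 to 41.0, edgeR adjusted p = 0.000184). The GFP counts of LGR5 all came from replicate 1 and most of those of RSPO3 from replicate 3. Leaving these libraries out had to raise the log2 fold changes, from 3.44 to 5.73 and from 3.25 to 4.55. The lowest values with 1 library left out were 3.05 for LGR5 and 2.77 for RSPO3. LGR5 and RSPO3 did not overlap between the groups, but both remained far below LGR4, which in RBFOX1 cells had a level of 1.53 ± 0.0768 against 0.106 ± 0.0172 for LGR5. ZNRF3, the ligase that removes Frizzled receptors from the surface, had 119 to 132 normalized counts in GFP and 119.6 to 147 in RBFOX1 libraries and did not pass (log2 fold change 0.07, SE 0.116, adjusted p = 0.664).

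Inside the cell, TCF7 rose strongly, TCF7L2 rose, LEF1 rose with overlapping groups, and AXIN2, NKD1, NKD2 and TCF7L1 did not pass. Thus 3 of these 7 were called (42.9%), near the 46.6% of all genes tested. NKD2 reached the 10 counts needed for testing only through the GFP libraries. TCF7 (ENSG00000081059, chr5:134114681-134151865), a β-catenin partner best known from T cells, had 40.1, 50.2 and 40.0 normalized counts in GFP and 232, 291 and 225 in RBFOX1 replicates. The means were 43.4 ± 5.87 and 249 ± 36.3, 5.74-fold higher in RBFOX1 cells (SD, n = 3 each, log2 fold change 2.54, SE 0.140, edgeR adjusted p = 7.73e-12). TCF7L2, the TCF factor of gut and of oligodendrocyte maturation, had 63.7, 96.9 and 83.2 normalized counts in GFP and 134, 149.9 and 118 in RBFOX1 replicates, without overlap (log2 fold change 0.76, SE 0.151, adjusted p = 0.000306). LEF1 had 52.2, 80.6 and 56.9 against 103, 92.2 and 77.6 normalized counts, where GFP replicate 2 lay above RBFOX1 replicate 3 (log2 fold change 0.54, adjusted p = 0.0133). Its call was lost without GFP replicate 1 (adjusted p = 0.0825), RBFOX1 replicate 1 (0.0545) or RBFOX1 replicate 2 (0.0524), and with DESeq2 (0.0653).

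On the length-scaled level TCF7 was the lowest of TCF7, LEF1 and TCF7L2 in GFP cells (0.310 ± 0.0419, 0.849 ± 0.204 and 0.869 ± 0.178) and the highest in RBFOX1 cells (1.78 ± 0.259, 1.22 ± 0.174 and 1.43 ± 0.172), where the ranges of TCF7 and TCF7L2 nearly met. AXIN2, a feedback inhibitor and the usual read-out of β-catenin activity, had 21.2, 19.9 and 29.5 normalized counts in GFP and 23.6, 31.1 and 26.5 in RBFOX1 replicates. These overlapped (log2 fold change 0.24, SE 0.241, adjusted p = 0.463). NKD1 and NKD2, Dishevelled-binding feedback inhibitors, did not pass either, at log2 fold changes of 0.57 and -0.85 (adjusted p = 0.220 and 0.361). TCF7L1, mostly a repressor, had 11.5, 11.7 and 19.0 against 12.7, 7.77 and 3.65 normalized counts (log2 fold change -0.93, adjusted p = 0.0788), and passed without RBFOX1 replicate 1 (adjusted p = 0.0360).

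Of 57 other genes of the pathway, 52 were tested, of which 17 rose and 19 fell (69.2%, against 46.6% of all genes tested). Most of them, 45, averaged 50 or more normalized counts. Of these 45, 16 rose and 17 fell, where 63.8% of all genes above that level were called. APC2 and GPC4, which rose, reached that average only through their RBFOX1 libraries. WLS, the carrier that takes WNT proteins to the cell surface, had 1359, 1501 and 1478 normalized counts in GFP and 3319, 3430 and 3281 in RBFOX1 replicates, far apart (log2 fold change 1.21, SE 0.0522, edgeR adjusted p = 1.76e-13). PORCN, the enzyme that attaches the lipid to WNT proteins, fell, with 230.1, 209 and 237 against 134, 118 and 151 normalized counts (log2 fold change -0.74, SE 0.108, edgeR adjusted p = 8.25e-06). CTNNB1, which encodes β-catenin, differed little (6332 ± 177 and 5834 ± 150 normalized counts, SD, n = 3 each; log2 fold change -0.12, adjusted p = 0.0444). Its call was lost without GFP replicate 1 (adjusted p = 0.0726), GFP replicate 3 (0.0806), RBFOX1 replicate 1 (0.123) or RBFOX1 replicate 3 (0.157), and with DESeq2 (0.0527), its median-of-ratios scaling (0.0520), no filter on low counts (0.0553), filterByExpr (0.0554) or the replicate block (0.0819).

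Above a mean normalized count of 50, the largest rises among these other genes were those of PRICKLE1, a planar polarity protein, APC2, a relative of the APC tumour suppressor, and TLE2, a co-repressor of TCF factors, with log2 fold changes of 1.87, 1.78 and 1.71 (edgeR adjusted p = 2.29e-12, 7.10e-08 and 2.04e-09). The largest falls were those of TLE1, another TLE co-repressor, TBX3, a described β-catenin target, and PORCN, with log2 fold changes of -1.73, -1.05 and -0.74 (edgeR adjusted p = 4.54e-11, 7.16e-08 and 8.25e-06). TLE1 had 415, 364 and 419 normalized counts in GFP and 109, 143 and 109.6 in RBFOX1 replicates, and TLE2 had 52.8, 61.9 and 53.7 against 214, 161 and 179, so the libraries of these co-repressors separated in opposite directions. Of the other TLE genes on the list, TLE4 rose (log2 fold change 1.23, edgeR adjusted p = 2.82e-13). TLE3, with a mean below 50, fell (log2 fold change -2.36, edgeR adjusted p = 3.48e-07). PRICKLE1 had 135, 120.3 and 126 against 501, 499.6 and 421 normalized counts. Of the 5 described β-catenin targets on the list, TBX3 and CCND1 fell and the others, SP5, TNFRSF19 and BAMBI, did not pass (40.0% called, against 46.6% of all genes tested). Of the targets counted among the members, DKK1 rose and AXIN2, the usual read-out, did not pass (edgeR adjusted p = 0.463).

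**Figure D4:**
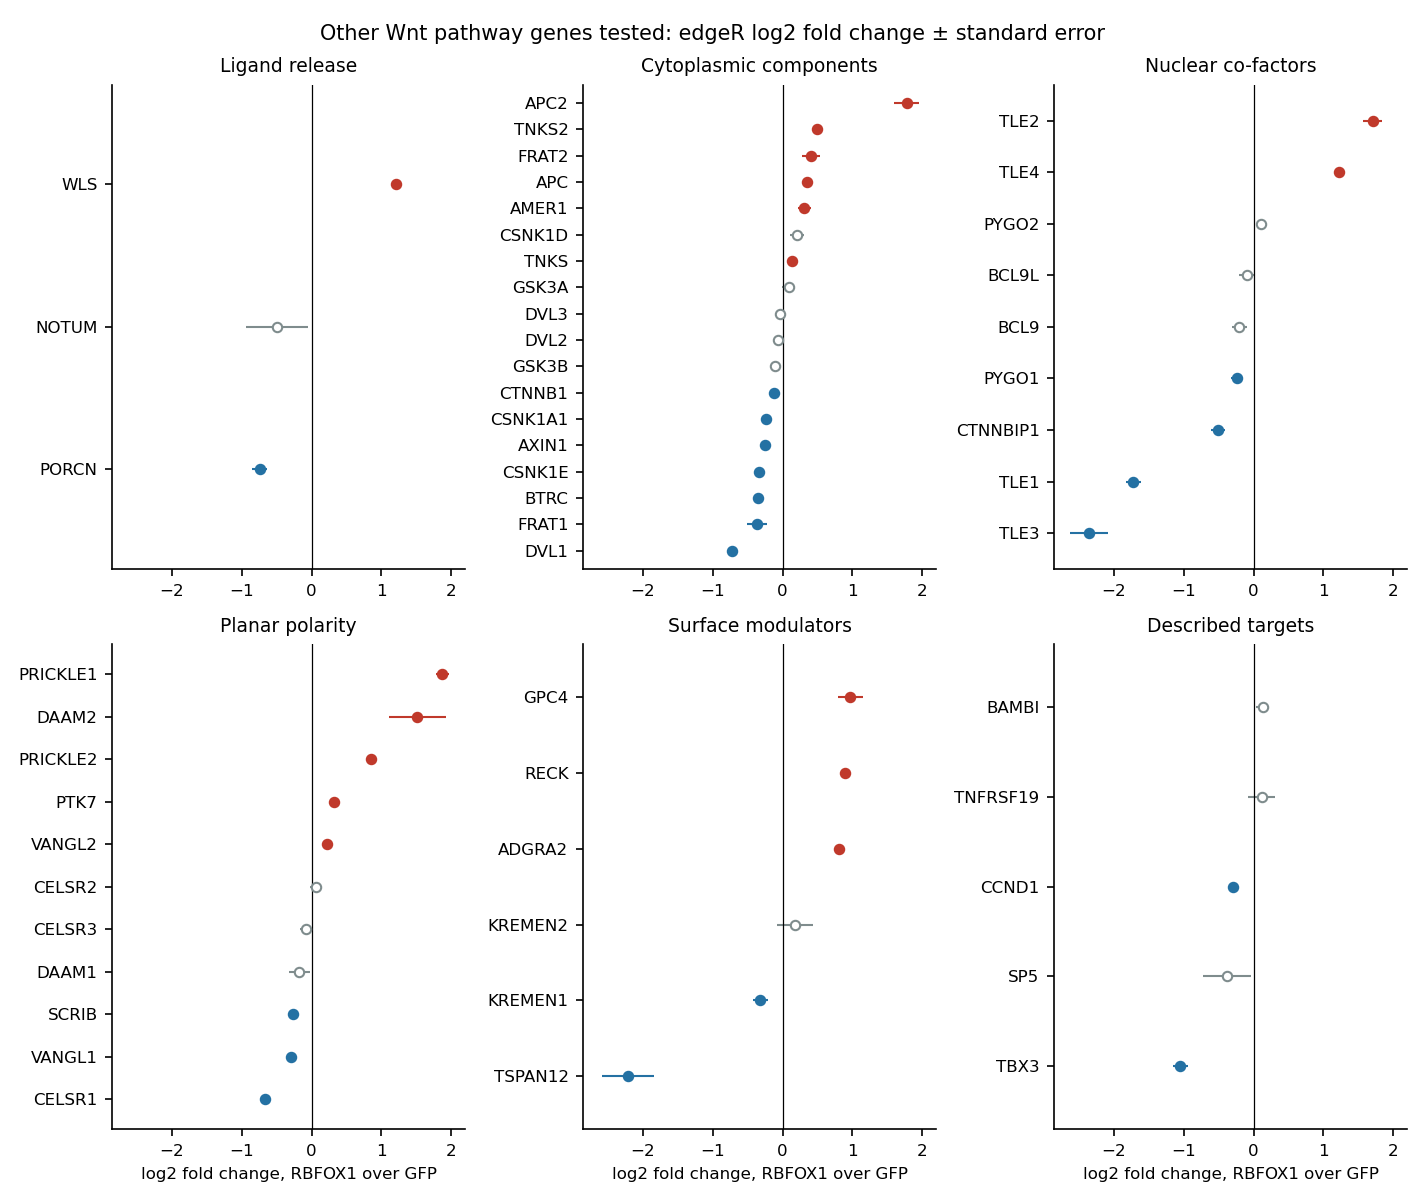
Log2 fold change of RBFOX1 over GFP cells for the 52 tested genes of the pathway outside the Wnt members, grouped by role, with edgeR's standard error as bars. Filled points passed an adjusted p of 0.05 (17 higher in red, 19 lower in blue) and open points did not; WLS is at 1.21 and PORCN at -0.74, while CTNNB1 is at -0.12.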

How the data were processed

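RNA-seq was made by the authors from 3 GFP and 3 RBFOX1 stable A172 lines. Per the methods and the submitters' processing notes, the authors aligned reads to GRCh38 with HISAT2, counted them per Ensembl gene with HTSeq-count (intersection-strict mode, reverse strand) and deposited unnormalized counts per library. The lines for reads on no gene (6.61 to 8.74% of reads), on several genes (6.89 to 9.35%), of low quality (16.8 to 27.0%) or unaligned (4.64 to 7.46%) stayed out of library sizes and tests. Reads shared between overlapping genes are lost in this mode. A table of the authors' DESeq2 comparison (log2 fold changes, errors, statistics and p-values) was not used.

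Depth was 7433414 to 23249221 counts on genes. Groups came from the labels, and the replicates are described as biological. Genes with at least 10 counts summed over libraries were normalized with TMM and tested two-sided in R 4.3.3 with the quasi-likelihood test of edgeR 4.0.16, condition as the only term, with Benjamini-Hochberg adjustment over the 20536 genes and a threshold of 0.05. The procedure was checked on simulated data. GENCODE release 44 gave symbols, exon lengths, coordinates and 3′ UTRs; it is later than the authors' annotation, and 98.1% of identifiers matched. AXIN2 shares 1316 exon bases with another gene of its strand that had 0 counts.

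The members and lists were chosen with earlier results of these data known. Values in every library are given for members that passed with a log2 fold change of 1 or more in size and no overlap, and for the highest level of each role, and for further members and pathway genes picked by name after their values were seen. Other pathway genes named by rule were CTNNB1, PORCN, WLS and, above a mean of 50, the 3 largest rises and 3 largest falls. Alternatives were median-of-ratios and upper quartile scaling, no filter, filterByExpr, DESeq2 (1.42.0), limma-voom (limma 3.58.1), a replicate block, and leaving out each library.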

Additional observations from a re-analysis of the deposited data

How the results depend on the processing

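No called gene changed direction, whereas WNT2B, WNT5B and ZNRF3, which were not called, changed sign when a library was left out. Of the 29 Wnt members called, 22 passed under each of the 13 alternatives and LGR5 under the 12 that tested it. Among the called members, filterByExpr left out LGR5 and ROR2. WNT10B, FZD7, LRP6, ROR2, SFRP1 and LEF1 were lost under at least 1 alternative. WNT3A, which filterByExpr also left out, and TCF7L1 were gained under at least 1. DESeq2 called 14 higher and 9 lower, in place of 17 and 12, and leaving out a library gave 15 to 16 higher and 9 to 12 lower. Asking for a log2 fold change of 1 or more in size left 11 higher and 4 lower. The median log2 fold change of the members lay between 0.14 and 0.31, the lowest without GFP replicate 1 and the highest without a filter on low counts. Same-numbered libraries did not deviate together (r = -0.16, 0.04 and -0.05 across genes, the highest value being 0.17 for GFP replicate 1 with RBFOX1 replicate 3), so the numbers were not taken as pairs, and with the replicate block 16 members were higher and 11 lower. Of the other pathway genes, 28 of 36 calls held in every alternative. The median log2 fold change of all genes stayed between -0.02 and 0.01. Members with few GFP counts are limited by depth, as their counting intervals show, and no explanation of any difference was tested.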
